A study of Mus musculus with 20 samples.

Results

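The 36 genes described here carry glucose through glycolysis to lactate or belong to the hypoxia response, and they were chosen by symbol from the 51456 gene symbols of the deposited tables. Of these, 24 act along the route from glucose uptake to lactate export, and 12 are Hif1a, its partner Arnt, its oxygen-sensing hydroxylases and 7 target genes. Poly-A RNA was sequenced with strand marking from macrophages grown from the bone marrow of C57BL/6 mice aged 4 to 5 months, over 6 days with CSF-1 (also called M-CSF) at 50 ng/ml, the growth factor that drives marrow cells to become macrophages. Of the 20 libraries 10 are wild type (WT, Rep1 to Rep10), 5 are labelled TREM2 5bp KO (KO) and 5 are labelled TREM2 R47H KI (R47H), a knock-in of the substitution whose human counterpart is a risk variant for Alzheimer's disease. Trem2 is a lipid-binding surface receptor of macrophages and microglia, and the design text gives the purpose as a study of gene expression disturbed by Trem2. Each genotype is described as 5 animals, with wild-type littermates of either mutant line as controls. The labels do not tie a wild-type library to either line, so all 10 served as the control of both mutants, and the KO and R47H comparisons share these controls. Levels are in FPKQ, a unit that no source used here defines, and they were read like FPKM, as values per gene length. Any order of levels between genes rests on that reading.

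Glycolysis begins when Slc2a transporters bring glucose into the cell and hexokinases phosphorylate it. Phosphofructokinase commits the sugar to the pathway, and the Pfkfb enzymes make an activator of that step. Aldolase splits the sugar into trioses, which triose phosphate isomerase interconverts, and the later enzymes from Gapdh to Pkm harvest ATP and end in pyruvate. Lactate dehydrogenase turns pyruvate into lactate, Slc16a transporters release it, and pyruvate dehydrogenase kinases hold pyruvate back from the mitochondria. Hif1a pairs with Arnt to switch on many of these genes when oxygen is low or when macrophages are activated, while the Egln hydroxylases mark the Hif1a protein for destruction when oxygen is present. The Hif1a protein is controlled mostly after translation, so its transcript does not report its activity.

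The deposited values were first checked against the labels. Trem2 was at 806 ± 60.6 FPKQ in the 10 WT libraries (SD), 24.1 ± 0.435 in the 5 KO and 652 ± 137 in the 5 R47H libraries, which fits the labels of the KO libraries, and the R47H level was below WT (adjusted p = 0.011). The 8 macrophage markers summed to between 23160 and 26580 FPKQ in WT, 32450 and 35220 in KO, and 26410 and 29500 in R47H. Most of each sum was Lyz2 alone, at a mean of 21000 FPKQ in WT, 29650 in KO and 23930 in R47H. Of these 8 markers 4 rose and 3 fell in KO (28.2% and 23.7% of all tested genes did), and 4 rose and 2 fell in R47H (13.4% and 7.83%). The marker lists of T cells, B cells, dendritic cells, erythroid cells, mast cells and stroma each summed to at most 2.74 FPKQ in any library. The T cell gene Cd3e was at 0 in all KO and R47H libraries. The hemoglobin genes Hbb-bs and Hba-a1 were at 0 in all R47H libraries. Neutrophil markers summed to 71.0 to 107.4 in WT (median 94.03), 99.4 to 130.2 in KO (median 115) and 86.8 to 151.0 in R47H (median 128.5). Depth was read from the low values, of which 85.4% to 92.4% per library were whole multiples of 1 fragment within 0.1 fragment, and a level of 1 FPKQ in a gene of 2 kb stood for 46.6 to 70.5 fragments. All 12 proliferation genes of the list used here (Mki67, Top2a, Ccna2 and others) fell in KO (median log2 difference -2.31) and in R47H (-1.14), and the part of these markers in the results below was not tested. In such bulk samples fewer cells of a type and less RNA per cell cannot be told apart.

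Promoters of 6 genes are shown because 3 of them rose in KO (Hif1a, Hk2 and P4ha2) and 3 fell (Ldha, Pgk1 and Pdk1). Each run holds the 250 bases before the gene's start in RefSeq on GRCm38.p6, 5′ to 3′ along the gene, and lies at chr12:73907617-73907866 on the plus strand for Hif1a, chr6:82774455-82774704 on the minus strand for Hk2, chr11:54100674-54100923 on the plus strand for P4ha2, chr7:46845554-46845803 on the plus strand for Ldha, chrX:106186850-106187099 on the plus strand for Pgk1 and chr2:71872974-71873223 on the plus strand for Pdk1. For Hif1a, P4ha2 and Ldha the GENCODE gene model begins farther upstream, and no base of the 6 windows lies in an annotated GENCODE exon. Capitals mark ACGTG and GCGTG, the core letters of the element that Hif1a and Arnt bind, on either strand (CACGT and CACGC when read from the other one), and the forward and reverse ACGTG overlap in CACGTG.
Hif1a: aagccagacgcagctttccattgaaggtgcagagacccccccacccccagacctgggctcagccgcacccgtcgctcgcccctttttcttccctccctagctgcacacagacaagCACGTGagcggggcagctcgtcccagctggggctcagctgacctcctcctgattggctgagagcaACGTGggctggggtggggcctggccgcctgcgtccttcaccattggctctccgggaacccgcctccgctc
Hk2: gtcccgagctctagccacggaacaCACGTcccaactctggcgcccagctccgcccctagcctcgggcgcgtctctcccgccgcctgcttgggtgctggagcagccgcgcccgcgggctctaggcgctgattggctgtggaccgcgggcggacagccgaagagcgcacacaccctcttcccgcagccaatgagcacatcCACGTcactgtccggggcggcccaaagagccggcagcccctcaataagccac
P4ha2: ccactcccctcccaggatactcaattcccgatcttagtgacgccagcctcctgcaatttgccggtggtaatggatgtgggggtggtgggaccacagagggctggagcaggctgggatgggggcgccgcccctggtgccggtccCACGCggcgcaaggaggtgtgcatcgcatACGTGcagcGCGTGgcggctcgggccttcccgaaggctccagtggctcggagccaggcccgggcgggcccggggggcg
Ldha: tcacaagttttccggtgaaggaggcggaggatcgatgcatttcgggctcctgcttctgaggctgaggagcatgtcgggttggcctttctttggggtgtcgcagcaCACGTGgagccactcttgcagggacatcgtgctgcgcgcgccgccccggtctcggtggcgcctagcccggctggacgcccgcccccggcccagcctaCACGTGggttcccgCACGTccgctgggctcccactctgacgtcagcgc
Pgk1: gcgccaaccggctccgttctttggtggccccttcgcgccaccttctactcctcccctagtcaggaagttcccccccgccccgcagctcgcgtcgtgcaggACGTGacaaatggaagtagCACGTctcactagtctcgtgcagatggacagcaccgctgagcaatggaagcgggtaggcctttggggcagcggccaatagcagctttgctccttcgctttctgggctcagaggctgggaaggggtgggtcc
Pdk1: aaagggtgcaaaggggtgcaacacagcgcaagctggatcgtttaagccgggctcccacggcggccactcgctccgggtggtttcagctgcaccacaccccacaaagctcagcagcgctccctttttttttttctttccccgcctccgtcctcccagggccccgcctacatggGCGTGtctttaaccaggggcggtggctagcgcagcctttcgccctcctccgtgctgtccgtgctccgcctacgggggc

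The letters stand in all 6 windows, once in Pdk1 and 5 times in Ldha, where CACGTG occurs at 2 places. Of the 36 genes, 33 had an entry in the RefSeq table (all but Slc2a3, Bnip3l and Ndrg1), and 27 of these 33 windows (81.8%) held at least 1 match. The share was 58.4% among the 8343 tested genes with a window and 38.6% among all 27025 windows of the table. Both ACGTG and GCGTG contain CG, and the GC content of the member windows ran from 36.4% to 86.0%. The shares were not matched for GC content, and its part in them was not tested. Among the members that rose in KO, 6 of 6 windows held a match, and among those that fell 14 of 19 did, so the letters were found in genes that moved in either direction. Each window precedes the most upstream RefSeq start of its gene and can lie in annotated exons. Of those that fell without a match, Aldoa, Gpi1, Pkm and Tpi1 had 193, 167, 208 and 138 of 250 bases in exons, and Hk1 had 0. Pfkfb3, which rose and held a match, had 148. The counts are therefore not a like comparison of promoters. A match is a run of letters and not a measured binding site.

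In KO most glycolytic enzymes fell, while Hif1a, Hk2 and Pfkfb3 rose. Each gene was tested over all 10843 genes whose mean reached 1 FPKQ (limma on log2(FPKQ + 1), Benjamini-Hochberg adjusted p under 0.05), and 35 of the 36 members could be tested, all but Egln3. Of the 35, 21 fell and 6 rose in KO against WT, beside 23.7% of all tested genes that fell and 28.2% that rose. The median log2 difference was -0.20 over these members and 0.014 over all genes. Along the route from glucose to lactate 18 of 24 fell and 3 rose, and of the 13 enzymes from Gpi1 to Ldha 12 fell (all but Pfkl) and 0 rose. Among the 11 tested members of the hypoxia response 3 rose (Hif1a, Arnt and P4ha2) and 3 fell (Egln1, Ankrd37 and Ndrg1). These counts are near the 28.2% and 23.7% of all tested genes. All 5 KO libraries lay above all 10 WT libraries for 6 of the 36 members and below them for 15, beside 15.4% and 13.3% of all tested genes. The 15 include Egln3, which was not tested.

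**Figure D1:**
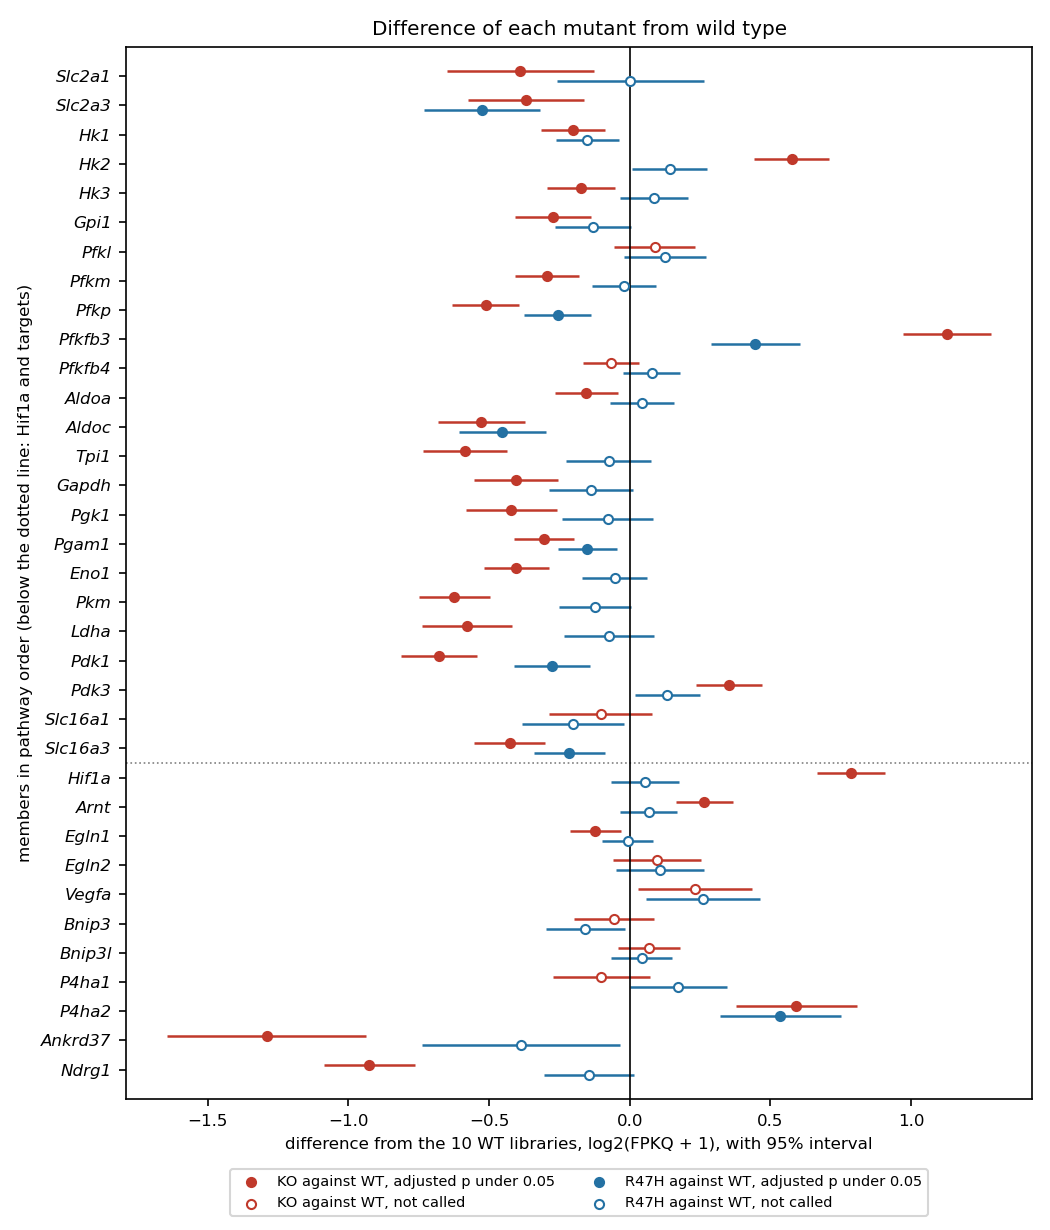
Log2 difference of KO (red) and R47H (blue) from the 10 WT libraries for the 35 tested genes in pathway order, with 95% intervals from limma. Filled points have an adjusted p under 0.05. The KO points from Gpi1 to Ldha lie left of 0 except Pfkl, while Hk2, Pfkfb3, Pdk3, Hif1a, Arnt and P4ha2 lie to the right.

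R47H differed from WT in fewer of these genes. Against the 10 WT libraries 6 members fell (Slc2a3, Pfkp, Aldoc, Pgam1, Pdk1 and Slc16a3) and 2 rose (Pfkfb3 and P4ha2), beside 7.83% and 13.4% of all tested genes. The median log2 difference was -0.053 over the 35 members and 0.039 over all genes. When R47H was tested against KO, 18 members were higher and 5 lower in R47H, beside 22.8% and 18.0% of all tested genes. Of the 13 enzymes from Gpi1 to Ldha, 10 were higher in R47H than in KO and 0 lower. This count rests on the direct comparison. When each mutant was first set against the wild-type set listed before it, only Pfkm and Pkm of the 13 were called higher.

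Pyruvate kinase, aldolase and the enzymes after it held the highest levels in wild-type macrophages. Pkm, pyruvate kinase, stood first at 1030.3 ± 77.4 FPKQ (SD, n = 10), above 99.5% of tested genes, followed by aldolase A (Aldoa) at 820.1 ± 36.9, Ldha at 507 ± 39.4 and Gapdh at 470.3 ± 33.8. Eno1, Pgk1, Pgam1, Tpi1 and Gpi1 came next, between 396 and 171 FPKQ, then hexokinase 3 (Hk3) at 146 ± 9.09. Ldha and Gapdh, and likewise Eno1, Pgk1 and Pgam1 as neighbours in this order, differed by less than the sum of their SDs. No gene of these 36 lay between Hk3 and Bnip3l, a gap wider than the sum of their SDs, and all transporters and regulatory kinases stood below it, from Slc16a3 at 30.1 ± 2.33 to Slc16a1 at 4.03 ± 0.481. Of the hypoxia members the mitophagy receptor gene Bnip3l (54.05 ± 4.10) was highest and Egln3 (1.26 ± 0.371) lowest. Summed over the 36 members, these transcripts made up 0.861% ± 0.0526 of all FPKQ in WT, 0.631% ± 0.0303 in KO and 0.757% ± 0.0493 in R47H (SD). The WT share was split without overlap, from 0.806% to 0.835% in Rep1 to Rep5 and from 0.87% to 0.954% in Rep6 to Rep10. It ran from 0.604% to 0.682% in KO and from 0.687% to 0.804% in R47H.

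At glucose uptake both transporters fell in KO. Slc2a1 (GLUT1, the main carrier of most cells) measured 13.4 to 23.5 FPKQ in WT (median 16.5), 12.7, 12.9, 14.9, 12.7 and 13.1 in KO and 22.2, 13.3, 19.8, 17.7 and 16.7 in R47H. KO Rep3 lay inside the WT range and the other KO libraries below it, and WT was itself split without overlap, at 14.9 ± 1.22 in Rep1 to Rep5 and 21.1 ± 2.56 in Rep6 to Rep10. Slc2a1 fell by 0.39 ± 0.13 (SE) on the log2 scale in KO (adjusted p = 0.013), and against the WT set Rep1 to Rep5 the difference was -0.15 (adjusted p = 0.247). Slc2a3 (GLUT3, a carrier of high affinity) measured 3.56 to 6.18 FPKQ in WT (median 5.18), 3.88, 4.55, 3.85, 3.24 and 3.12 in KO and 2.74, 3.44, 3.56, 3.20 and 3.18 in R47H. Every R47H library lay at or below the lowest WT library, while KO lay in part inside the WT range and in part below it. Slc2a3 fell by 0.53 ± 0.099 (SE) in R47H (adjusted p = 0.000538) and fell by 0.37 ± 0.099 in KO (adjusted p = 0.00363). Against WT Rep6 to Rep10 alone the KO difference of Slc2a3 was -0.19 (adjusted p = 0.106).

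Of the 3 hexokinases, which trap glucose in the cell, Hk2 rose in KO and the other two fell. Hk2, the inducible form that binds mitochondria, measured 6.83 to 9.25 FPKQ in WT (median 8.69), 13.2, 13.4, 12.2, 13.4 and 14.6 in KO and 10.1, 8.36, 8.72, 11.03 and 10.1 in R47H. All 5 KO libraries lay above all WT and all R47H libraries. Hk2 rose by 0.58 ± 0.064 (SE) in KO (adjusted p = 1.47e-07), and its difference in R47H was 0.14 (95% interval 0.0083 to 0.28, adjusted p = 0.126). Hk1, the form found in most tissues, measured 35.8 to 42.6 FPKQ in WT (median 36.6), 32.8, 34.3, 32.8, 33.01 and 30.4 in KO and 32.7, 30.3, 31.9, 36.01 and 38.99 in R47H. Every KO library lay below the lowest WT library, and Hk1 fell by 0.20 ± 0.055 (SE) (adjusted p = 0.00395), or -0.15 against the WT set Rep1 to Rep5 (adjusted p = 0.0522). In R47H the difference of Hk1 was -0.15 (adjusted p = 0.0554), and it passed the threshold without R47H Rep4 (adjusted p = 0.0431) or R47H Rep5 (adjusted p = 0.0107). Hk3, the form of blood cells and the most abundant here, measured 134 to 158 FPKQ in WT (median 144), 119, 118, 131, 132 and 146 in KO and 152, 144, 177, 155 and 147 in R47H. KO Rep5 lay inside the WT range and the other 4 KO libraries below it. Hk3 fell by 0.17 ± 0.058 (SE) in KO (adjusted p = 0.0161), a call that was lost without KO Rep1 (adjusted p = 0.0594) or KO Rep2 (adjusted p = 0.0644) and against the WT set Rep1 to Rep5 (adjusted p = 0.148). Hk3 made up 75.8% ± 0.785 of hexokinase FPKQ in WT (SD) and 73.6% ± 2.06 in KO, while the share of Hk2 was 4.51% ± 0.428 in WT, 7.63% ± 0.460 in KO and 4.88% ± 0.582 in R47H.

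Gpi1, which turns glucose phosphate into fructose phosphate, measured 171 ± 13.00 FPKQ in WT, 142 ± 11.7 in KO and 157 ± 16.8 in R47H. It fell by 0.27 ± 0.065 (SE) in KO (adjusted p = 0.00139), with KO Rep5 inside the WT range. Phosphofructokinase has 3 forms. Pfkp, the platelet form and the most abundant here, measured 31.5 to 38.2 FPKQ in WT (median 33.97), 22.1, 21.7, 27.4, 23.8 and 23.9 in KO and 29.6, 25.8, 28.4, 27.8 and 31.1 in R47H. Its KO and R47H libraries all lay below the lowest WT library. Pfkp fell by 0.51 ± 0.057 (SE) in KO (adjusted p = 1.24e-07) and by 0.26 ± 0.057 in R47H (adjusted p = 0.00227). Pfkm, the muscle form, measured 8.41 to 10.5 FPKQ in WT (median 9.62), 7.39, 7.20, 8.77, 7.94 and 6.66 in KO and 8.48, 9.36, 10.02, 9.69 and 9.25 in R47H. KO Rep3 and all R47H libraries lay inside the WT range, and the other 4 KO libraries below it. Pfkm fell by 0.29 ± 0.055 (SE) in KO (adjusted p = 0.00012). Pfkl, the liver form, measured 16.5 to 21.9 FPKQ in WT (median 19.2), 21.3, 19.6, 19.8, 21.9 and 20.8 in KO and 19.2, 23.3, 23.9, 19.9 and 19.9 in R47H. All 3 groups overlapped, and its KO difference from WT was 0.088 (95% interval -0.057 to 0.23, adjusted p = 0.302). Against the WT set Rep1 to Rep5, where all KO libraries lay higher, Pfkl rose by 0.21 ± 0.065 (SE) (adjusted p = 0.014). Pfkp held 54.2% ± 1.43 of phosphofructokinase FPKQ in WT, 45.6% ± 2.16 in KO and 48.3% ± 3.48 in R47H, and Pfkl held 30.7% ± 1.74, 39.8% ± 2.56 and 35.9% ± 3.08.

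The regulator Pfkfb3 moved against the enzymes. Pfkfb3, whose kinase activity makes the allosteric activator of phosphofructokinase, measured 10.2 to 13.9 FPKQ in WT (median 11.9), 25.5, 28.8, 28.5, 26.3 and 27.5 in KO and 17.7, 15.2, 13.6, 20.03 and 17.5 in R47H. All KO libraries lay above every WT and R47H library, and R47H lay between, with its lowest library inside the WT range. Pfkfb3 rose by 1.13 ± 0.075 (SE) in KO (adjusted p = 4.64e-11) and by 0.45 ± 0.075 in R47H (adjusted p = 0.000171). It was lower in R47H than in KO (log2 difference -0.68, adjusted p = 3.99e-06). Pfkfb4, its paralog, measured 16.3 to 18.2 FPKQ in WT (median 16.9), 17.5, 17.04, 15.2, 15.8 and 15.7 in KO and 18.3, 16.7, 16.3, 19.3 and 19.9 in R47H. The groups overlapped, with a KO difference of -0.066 (95% interval -0.17 to 0.034) and an R47H difference of 0.078 (95% interval -0.022 to 0.18). Pfkfb3 held 41.2% ± 2.12 of the FPKQ of the pair in WT, 62.7% ± 2.21 in KO and 48.01% ± 2.08 in R47H.

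**Figure D2:**
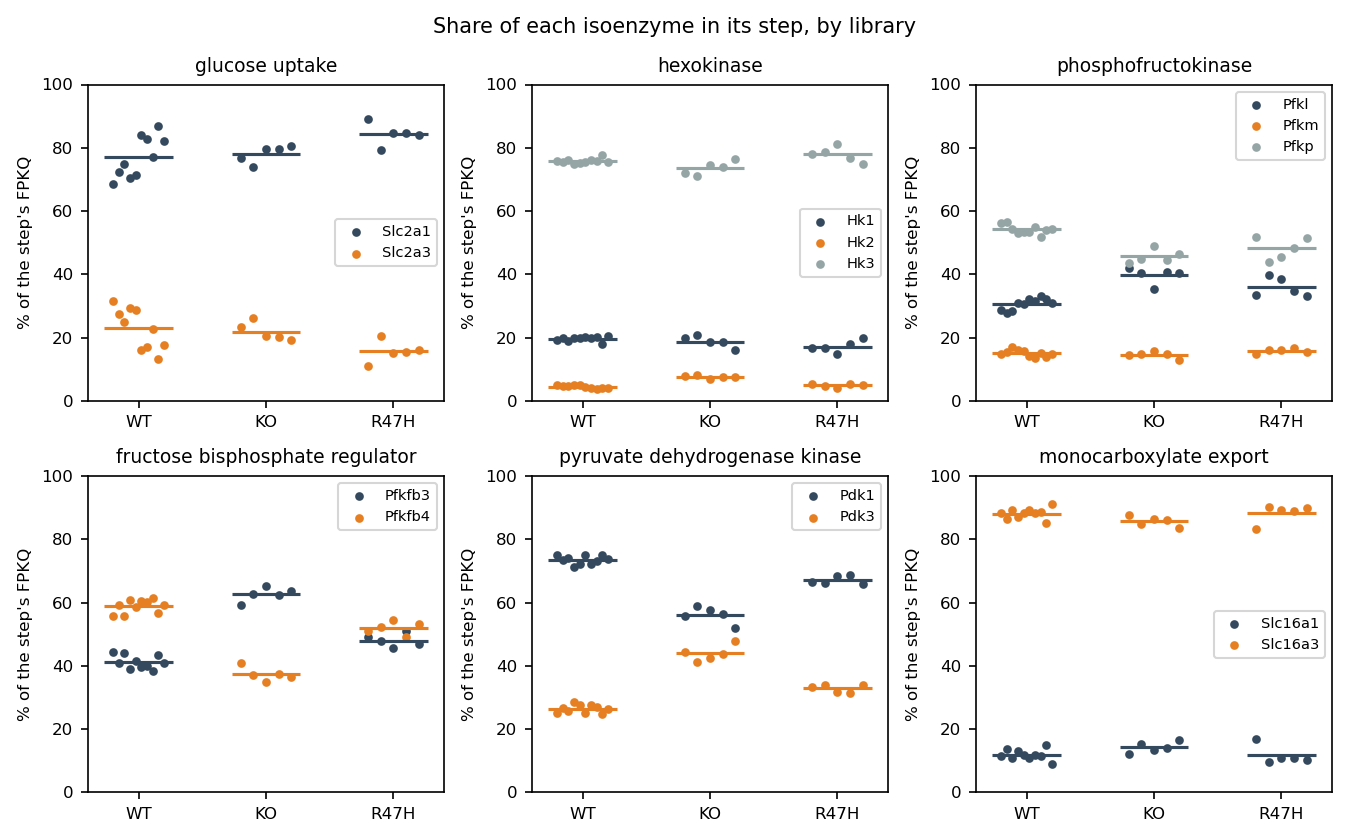
Share of each form in the summed FPKQ of its step (percent) for 6 steps with more than 1 measured gene, with a point per library and a line at the group mean. In KO the Pfkfb3 and Pfkfb4 points change order against WT, and the Pdk1 and Pdk3 points move toward each other.

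Aldolase splits the phosphorylated sugar into a pair of trioses. Aldoa, the main form, measured 761 to 884 FPKQ in WT (median 823), 682, 730.3, 772, 749.7 and 749.9 in KO and 865, 868, 974, 746 and 786 in R47H. KO Rep3 lay inside the WT range and the other 4 KO libraries below it, and R47H spanned the widest range of the 3 groups. Aldoa fell by 0.15 ± 0.054 (SE) in KO (adjusted p = 0.0214). This call was lost without KO Rep1 (adjusted p = 0.0786), against the WT set Rep1 to Rep5 (-0.11, adjusted p = 0.198) and after quantile normalization (-0.017, adjusted p = 0.799). Aldoc, a form known from brain that made up 3.11% ± 0.364 of aldolase FPKQ in WT, measured 19.9 to 30.1 FPKQ in WT (median 26.3), 17.7, 19.5, 17.6, 18.2 and 16.3 in KO and 19.2, 18.01, 20.7, 20.02 and 16.5 in R47H. Every KO library lay below the lowest WT library, and 2 of the 5 R47H libraries lay inside the WT range and 3 below it. Aldoc fell by 0.53 ± 0.074 (SE) in KO (adjusted p = 3.85e-06) and by 0.45 ± 0.074 in R47H (adjusted p = 0.000131). Tpi1, which interconverts the trioses, measured 195 to 272 FPKQ in WT (median 234), 149, 154, 156, 159 and 164 in KO and 230.0, 219.6, 253, 215 and 203 in R47H. All KO libraries lay below all WT and all R47H libraries. Tpi1 fell by 0.59 ± 0.072 (SE) in KO (adjusted p = 6.42e-07), and its R47H difference was -0.074 (95% interval -0.22 to 0.076).

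The enzymes that yield ATP and pyruvate fell together in KO. Gapdh, which oxidizes the triose phosphate, measured 424 to 517 FPKQ in WT (median 465.8), 319.6, 340.0, 345, 365 and 407 in KO and 501, 387, 479, 399 and 380.4 in R47H. KO lay below the whole WT range, and R47H straddled its lower end. Gapdh fell by 0.40 ± 0.071 (SE) in KO (adjusted p = 6.52e-05). Pgk1, which makes the first ATP of the pathway, measured 323 to 412 FPKQ in WT (median 369.7), 253, 243, 277, 281 and 296 in KO and 366, 329.6, 424, 295 and 309.8 in R47H. Its KO libraries again lay below every WT library, and its R47H libraries spread over and beyond the WT range. Pgk1 fell by 0.42 ± 0.078 (SE) in KO (adjusted p = 0.000112). Pgam1, phosphoglycerate mutase, measured 359 ± 16.4 in WT, 291 ± 9.61 in KO and 325 ± 32.7 in R47H, with KO below the WT range. It fell by 0.30 ± 0.051 (SE) in KO (adjusted p = 3.2e-05).

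Enolase 1 (Eno1), which makes phosphoenolpyruvate, measured 359 to 447 FPKQ in WT (median 394), 291, 288, 314, 313 and 288 in KO and 402, 367, 408, 373 and 356 in R47H. All KO libraries lay below all WT and R47H libraries. Eno1 fell by 0.40 ± 0.055 (SE) in KO (adjusted p = 2.71e-06). Pkm, which makes pyruvate and the last ATP, measured 925 to 1148 FPKQ in WT (median 1002), 643, 631, 649, 681 and 734 in KO and 1022, 882, 1054, 891 and 880.3 in R47H. KO again lay below both other groups, and R47H covered the lower part of the WT range with 3 libraries below it. Pkm fell by 0.62 ± 0.061 (SE) in KO (adjusted p = 2.18e-08). Ldha, which makes lactate, measured 448 to 566 FPKQ in WT (median 503), 318, 322, 338, 341 and 372 in KO and 509.6, 485, 604, 427 and 398 in R47H. Its KO libraries lay below all others, while R47H ranged from below to above WT, with Rep3 the highest of the 20 libraries. Ldha fell by 0.58 ± 0.077 (SE) in KO (adjusted p = 1.83e-06), and its R47H difference was -0.074 (95% interval -0.23 to 0.086). Retained copies of these genes held little signal, with Pgk1-rs7 at 2.58 FPKQ over all libraries beside 335 for Pgk1, and Eno1b at 0.265 beside 368 for Eno1. Genes on the opposite strand overlap Tpi1 (Spsb2, 42.9 FPKQ), Gapdh (Iffo1, 13.98), Pfkp (Pitrm1, 16.6) and Pfkm (Senp1, 5.73), and whether the counting used strand is not stated, so part of the reads cannot be assigned with certainty.

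**Figure D3:**
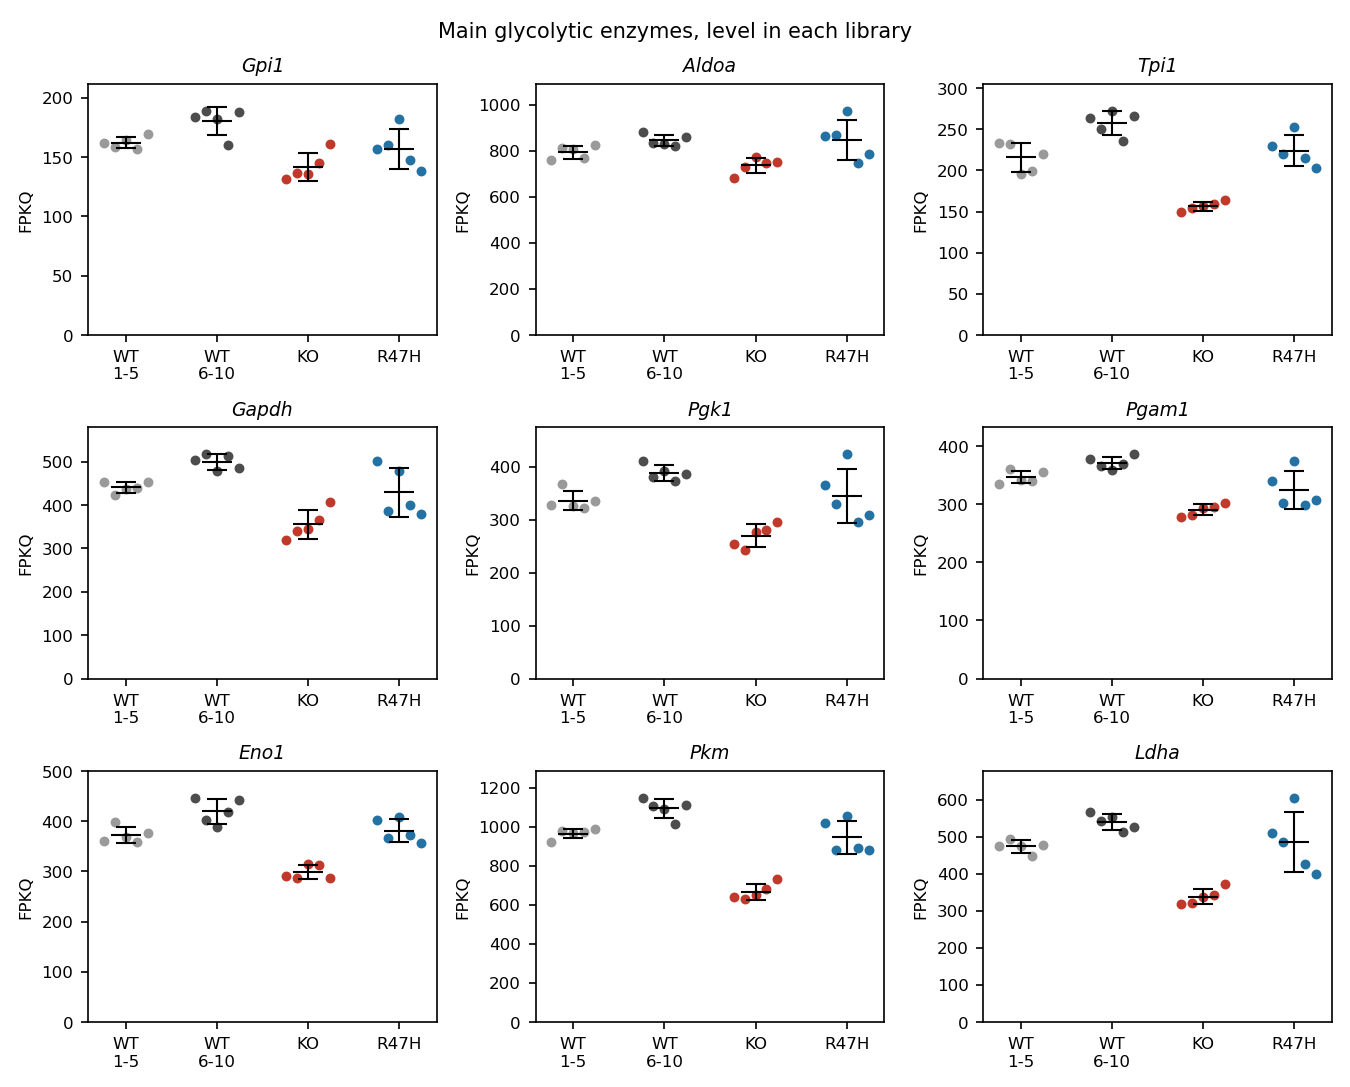
Level in FPKQ of 9 enzymes from Gpi1 to Ldha in each library (points), with the mean and SD (bars) of WT Rep1 to Rep5, WT Rep6 to Rep10, KO and R47H (n = 5 each). The KO points lie below every WT point for Tpi1, Gapdh, Pgk1, Pgam1, Eno1, Pkm and Ldha.

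Of the kinases that restrain pyruvate dehydrogenase, Pdk1 fell and Pdk3 rose in KO, so that their levels came closer together. Pdk1, a known Hif1a target, measured 16.2 to 23.1 FPKQ in WT (median 18.3), 10.1, 11.8, 12.8, 11.2 and 10.7 in KO and 15.98, 14.6, 15.5, 15.6 and 14.5 in R47H. KO lay lowest, R47H between, and neither overlapped WT or the other. Pdk1 fell by 0.68 ± 0.065 (SE) in KO (adjusted p = 1.34e-08) and by 0.28 ± 0.065 in R47H (adjusted p = 0.00366). Pdk3 measured 6.06 to 7.64 FPKQ in WT (median 6.60), 8.02, 8.30, 9.43, 8.71 and 9.91 in KO and 8.03, 7.48, 7.20, 7.12 and 7.47 in R47H. All KO libraries lay above WT, and R47H overlapped both. Pdk3 rose by 0.35 ± 0.056 (SE) in KO (adjusted p = 1.69e-05), and its R47H difference was 0.13 (95% interval 0.017 to 0.25, adjusted p = 0.0958). Pdk1 held 73.5% ± 1.34 of the FPKQ of the pair in WT, 56.1% ± 2.56 in KO and 67.1% ± 1.24 in R47H.

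Slc16a3 (MCT4), known as the lactate exporter of highly glycolytic cells, made up 88.1% ± 1.65 of the FPKQ of the 2 carriers in WT. Slc16a3 measured 27.4 to 34.3 FPKQ in WT (median 29.5), 23.5, 20.4, 21.8, 23.2 and 21.5 in KO and 23.03, 26.5, 30.01, 23.97 and 25.5 in R47H. The KO libraries all lay below WT, and of R47H only Rep3 reached into the WT range. Slc16a3 fell by 0.43 ± 0.061 (SE) in KO (adjusted p = 4.31e-06) and by 0.21 ± 0.061 in R47H (adjusted p = 0.0141), and the R47H call was lost without R47H Rep1 (adjusted p = 0.0519) and against the WT set Rep1 to Rep5 (-0.14, adjusted p = 0.146). Slc16a1 (MCT1), which carries lactate in either direction, measured 3.35 to 5.01 FPKQ in WT (median 4.01), 3.28, 3.67, 3.41, 3.78 and 4.22 in KO and 4.67, 2.87, 3.67, 2.94 and 2.87 in R47H. The groups overlapped, with differences of -0.10 in KO (95% interval -0.29 to 0.079) and -0.20 in R47H (95% interval -0.38 to -0.020, adjusted p = 0.11). The R47H difference of Slc16a1 passed the threshold without R47H Rep1 (-0.30, adjusted p = 0.0101) and with equal sums (adjusted p = 0.0199).

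Hif1a itself rose in KO, while its R47H interval included 0. It measured 27.1 to 31.05 FPKQ in WT (median 28.3), 50.9, 48.3, 53.4, 46.1 and 50.2 in KO and 32.9, 26.3, 24.9, 31.95 and 32.6 in R47H. All 5 KO libraries lay above every WT and R47H library, and R47H spread on both sides of WT. Hif1a rose by 0.79 ± 0.058 (SE) in KO (adjusted p = 2.57e-10), and its R47H difference was 0.055 (95% interval -0.067 to 0.18, adjusted p = 0.553). Arnt, the constitutive partner of Hif1a, was at 18.4 ± 0.960 FPKQ in WT, 22.4 ± 1.17 in KO and 19.4 ± 1.62 in R47H. The KO libraries again lay above both other groups, and Arnt rose by 0.27 ± 0.049 (SE) (adjusted p = 0.000105). Of the hydroxylases, Egln1 (PHD2, the main oxygen sensor) was at 17.1 ± 0.977 in WT, 15.6 ± 0.868 in KO and 16.98 ± 0.516 in R47H. It fell by 0.12 ± 0.044 (SE) in KO (adjusted p = 0.0245), a call that was lost without KO Rep1 (adjusted p = 0.0926) or KO Rep5 (adjusted p = 0.0583) and against the WT set Rep1 to Rep5 (adjusted p = 0.255). Egln2 (PHD1) was at 32.5 ± 2.36, 34.8 ± 1.70 and 35.4 ± 6.04, with a KO difference of 0.098 (95% interval -0.060 to 0.26). Egln3 (PHD3, itself induced by Hif1a) was below the minimum for the test, at 1.26 ± 0.371 in WT, 0.474 ± 0.156 in KO and 0.963 ± 0.364 in R47H. Every KO library of Egln3 lay below the lowest WT library, and without the minimum it fell by 0.60 ± 0.12 (SE) in KO (adjusted p = 0.000779 among 23425 genes).

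Hypoxia targets went in both directions in KO, and the hypoxia members were called in shares near those of all tested genes (28.2% rose and 23.7% fell). Ndrg1, a stress gene known for its strong induction by hypoxia, measured 31.8 to 43.9 FPKQ in WT (median 36.2), 18.6, 18.5, 15.9, 19.3 and 20.7 in KO and 27.6, 35.5, 36.5, 30.6 and 33.3 in R47H. All KO libraries lay below all others, and R47H overlapped WT. Ndrg1 fell by 0.93 ± 0.077 (SE) in KO (adjusted p = 1.73e-09). Ankrd37, a small Hif1a target, measured 2.64 to 6.30 FPKQ in WT (median 4.66), 1.66, 1.46, 1.10, 1.02 and 0.889 in KO and 3.25, 2.98, 5.17, 2.74 and 2.07 in R47H. KO lay below both other groups, and the 2 WT sets stood apart at 3.49 ± 0.850 and 5.61 ± 0.698. Ankrd37 fell by 1.29 ± 0.17 (SE) in KO (adjusted p = 1.53e-06), and its level is uncertain because it overlaps Ufsp2 (36.1 FPKQ) on the other strand and the sources used here do not say whether counting used strand. Its R47H difference was -0.39 against all WT (adjusted p = 0.114), -0.10 against WT Rep1 to Rep5 and -0.67 against WT Rep6 to Rep10 (adjusted p = 0.00504).

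The collagen prolyl hydroxylase subunit P4ha2 rose in both mutants. P4ha2 measured 1.88 to 2.76 FPKQ in WT (median 2.16), 2.77, 4.20, 4.04, 5.26 and 3.47 in KO and 3.29, 4.36, 4.73, 2.99 and 3.32 in R47H. Both mutants lay wholly above WT and overlapped each other. P4ha2 rose by 0.59 ± 0.10 (SE) in KO (adjusted p = 5.28e-05) and by 0.54 ± 0.10 in R47H (adjusted p = 0.000638). P4ha1, the paralog with the higher level, measured 28.00 to 40.9 FPKQ in WT (median 33.6), 33.8, 31.3, 29.3, 32.1 and 30.6 in KO and 42.6, 35.3, 36.4, 40.5 and 36.3 in R47H. WT was split at 29.7 ± 1.40 in Rep1 to Rep5 and 38.3 ± 2.29 in Rep6 to Rep10, with no overlap between them. The difference of P4ha1 from all WT was -0.10 in KO (adjusted p = 0.324) and 0.17 in R47H (adjusted p = 0.151). Against the WT set Rep1 to Rep5 P4ha1 rose by 0.35 ± 0.058 (SE) in R47H (adjusted p = 0.000587) and differed by 0.077 in KO (adjusted p = 0.306). Against WT Rep6 to Rep10 alone it fell by 0.28 ± 0.061 (SE) in KO (adjusted p = 0.00126) and differed by -0.0055 in R47H (adjusted p = 0.966), so the wild-type set decided both calls.

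Vegfa, the main angiogenic growth factor, measured 34.00 to 55.3 FPKQ in WT (median 43.6), 54.7, 54.7, 46.2, 55.1 and 46.7 in KO and 50.7, 56.3, 44.99, 57.3 and 53.2 in R47H. Its WT sets were also split, at 38.1 ± 3.69 and 49.9 ± 3.55, and both mutants lay at about the level of the second set. Against all WT its difference was 0.23 in KO (adjusted p = 0.0512) and 0.26 in R47H (adjusted p = 0.0636). Against the WT set Rep1 to Rep5 Vegfa rose by 0.42 ± 0.081 (SE) in KO (adjusted p = 0.000473) and by 0.45 ± 0.081 in R47H (adjusted p = 0.00106). Against WT Rep6 to Rep10 alone its R47H difference was 0.069 (adjusted p = 0.594) and its KO difference 0.042 (adjusted p = 0.677). Leaving out any of 7 single libraries, WT Rep6 among them (adjusted p = 0.019), brought the KO difference from all WT under the threshold. The R47H difference of Vegfa passed it without WT Rep6 (adjusted p = 0.0265), WT Rep10 (adjusted p = 0.045) or R47H Rep3 (adjusted p = 0.0387). The mitophagy genes Bnip3 and Bnip3l passed the test in neither mutant, with KO differences of -0.057 (95% interval -0.20 to 0.085) and 0.069 (95% interval -0.040 to 0.18). Bnip3 was at 21.5 ± 1.54 FPKQ in WT, 20.6 ± 1.83 in KO and 19.2 ± 2.33 in R47H, and Bnip3l at 54.05 ± 4.10, 56.7 ± 3.32 and 55.6 ± 3.03.

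**Figure D4:**
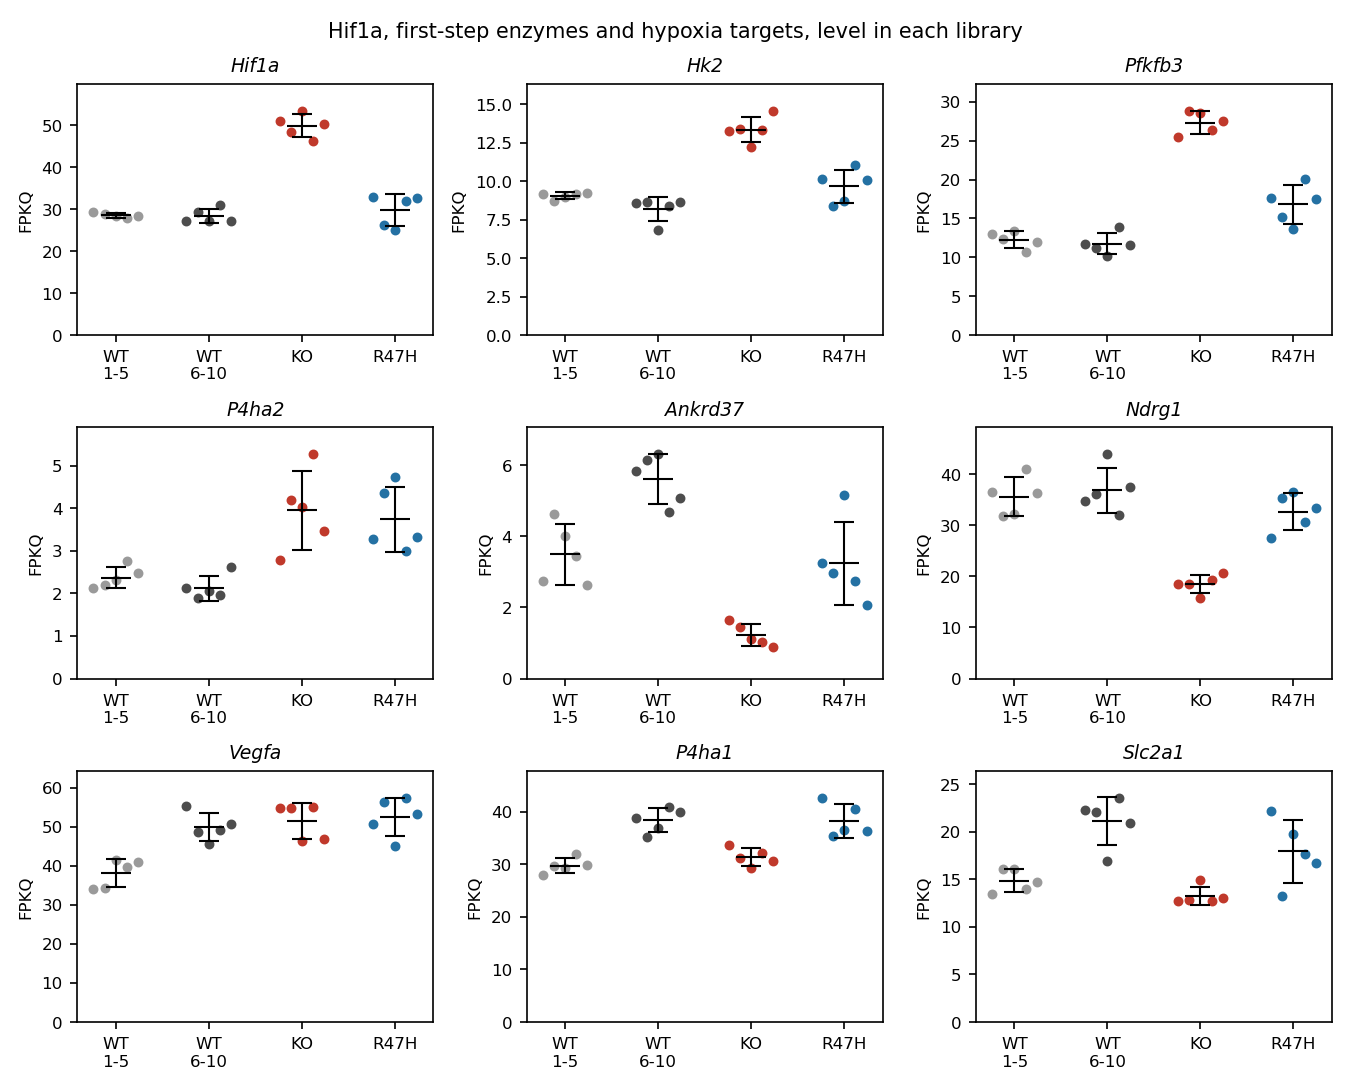
Level in FPKQ of Hif1a, Hk2, Pfkfb3, 5 hypoxia targets and Slc2a1 in each library (points), with the mean and SD (bars) of WT Rep1 to Rep5, WT Rep6 to Rep10, KO and R47H (n = 5 each). KO stands above both WT sets for Hif1a, Hk2, Pfkfb3 and P4ha2 and below them for Ankrd37 and Ndrg1. The 2 WT sets stand apart for Vegfa, P4ha1, Slc2a1 and Ankrd37, and they do not overlap for Hk2 either.

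The 2 sets of wild-type libraries differed in several of these genes. In the sample list the 5 libraries WT Rep1 to Rep5 precede KO, and WT Rep6 to Rep10 precede R47H. Between the sets 7 of the 35 members differed, beside 6.51% of all tested genes (3.63% higher and 2.88% lower in Rep6 to Rep10). Slc2a1, Pfkl, Tpi1, Vegfa, P4ha1 and Ankrd37 were higher in Rep6 to Rep10 by 0.25 to 0.57 on the log2 scale, and Slc2a3 was lower (log2 difference -0.36). Gapdh, Pgk1, Eno1, Pkm and Ldha were not called but stood higher there by 0.17 to 0.21 (limma adjusted p from 0.0542 to 0.164). All of these but Eno1 did not overlap between the sets. Gpi1, Pfkp, Aldoa and Pgam1 were higher by 0.089 to 0.15, and Pfkm (-0.013) and Aldoc (-0.14) were lower, all not called. Against the WT set Rep1 to Rep5, 6 members rose and 4 fell in R47H, beside 11.7% and 6.31% of all tested genes. Against WT Rep6 to Rep10 alone, 2 rose and 10 fell, beside 10.6% and 7.41%. Pfkfb3 and P4ha2 rose and Slc2a3, Pfkp, Aldoc and Pdk1 fell against either set.

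Where each mutant was set against the wild-type set listed before it, in a model of 4 groups, 12 members fell in R47H and 3 rose, beside 8.40% and 12.7% of all tested genes. The 12 included Gpi1, Tpi1, Gapdh, Pgam1 and Pkm, whose log2 differences ran from -0.23 (Gapdh, adjusted p = 0.0329) to -0.20 (Pgam1, adjusted p = 0.012), and Ankrd37 at -0.67 (adjusted p = 0.0034). Of the 13 enzymes from Gpi1 to Ldha 7 fell in R47H in this model and 0 rose, and in KO 11 fell and 1 rose, beside 19.6% and 24.7% of all tested genes that fell and rose in KO. The call of Pgam1 against all WT (log2 difference -0.15, adjusted p = 0.0389) was lost without any 1 of 10 single libraries, with adjusted p-values from 0.0504 to 0.127.

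**Figure D5:**
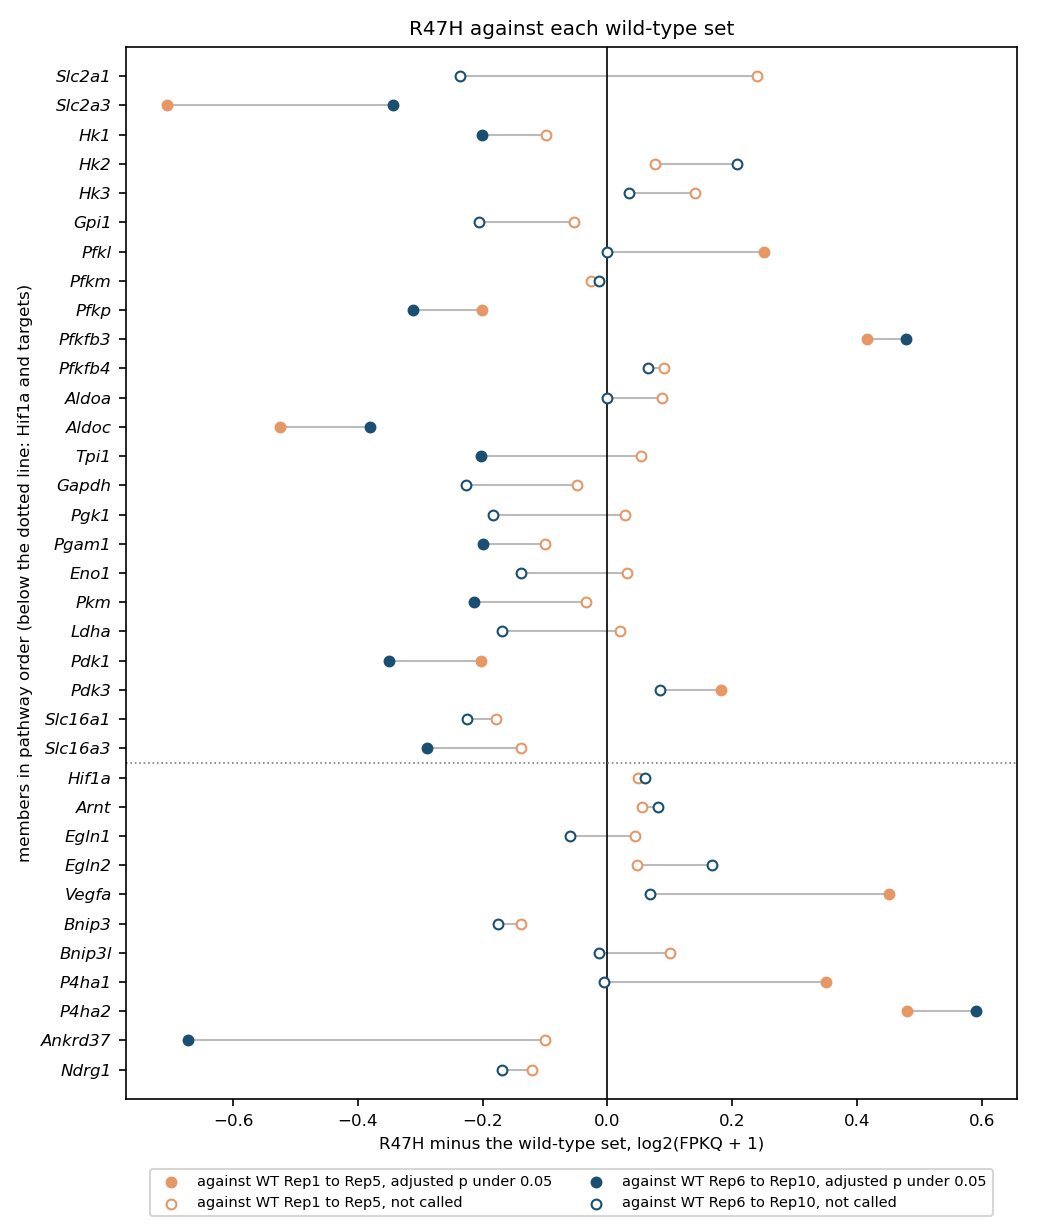
Log2 difference of R47H from WT Rep1 to Rep5 (orange) and from WT Rep6 to Rep10 (dark blue) for the 35 tested genes, each from a fit without the other set. Filled points have an adjusted p under 0.05. Most glycolytic enzymes lie farther left against WT Rep6 to Rep10, and Slc2a1, Vegfa, P4ha1 and Ankrd37 show wide gaps between the 2 points.

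Set side by side, KO and R47H differed in Hif1a, Hk2, Ndrg1, Pdk3, Pfkfb3, Pfkm and Pkm under each handling of wild type. They differed in Ankrd37, Tpi1 and Ldha under some. Ankrd37 was higher in R47H by 0.90 ± 0.20 (SE) on the log2 scale (adjusted p = 0.0011), but as a difference of the changes from the neighbouring wild-type sets by 0.33 ± 0.22 (adjusted p = 0.321). Ndrg1 was higher by 0.78 ± 0.089 (adjusted p = 9.96e-07). Hif1a was lower in R47H (log2 difference -0.73 ± 0.067, adjusted p = 5.18e-08), as was Hk2 (-0.43 ± 0.074, adjusted p = 0.000119). Tpi1, Ldha and Pkm were higher in R47H by 0.50 to 0.51 (adjusted p = 7.2e-05, 0.000157 and 1.42e-05). With the neighbouring sets these differences were 0.25 for Tpi1 (adjusted p = 0.0597), 0.32 for Ldha (adjusted p = 0.0671) and 0.32 for Pkm (adjusted p = 0.0144), and the calls of Tpi1 and Ldha were lost. The 2 mutants overlapped in P4ha2 (log2 difference -0.057, 95% interval -0.30 to 0.19) and Aldoc (0.075, 95% interval -0.10 to 0.25). All R47H libraries lay above all KO libraries for 8 members and below them for 4, beside 12.3% and 10.8% of all tested genes. Of the 23 calls, 6 were lost when single libraries were left out. Those were Slc2a1 (7 libraries, adjusted p up to 0.0995), Pfkfb4 (11 libraries, up to 0.12), Pgam1 (6 libraries, up to 0.136), P4ha1 (4 libraries, up to 0.0708), Slc16a3 (KO Rep2 or R47H Rep3, up to 0.0707) and Aldoa (R47H Rep3, 0.0551).

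These counts depend on how wild type is handled. As a difference of the 2 differences from the neighbouring wild-type sets, 3 members were higher in R47H (Pfkm, Pkm and Ndrg1) and 5 were lower (Hk2, Pfkfb3, Pdk3, Hif1a and Vegfa), beside 8.35% and 6.03% of all tested genes. Of the 23 members called in R47H against KO (40.7% of all tested genes were called), 7 were called in every alternative that tested them (Hif1a, Hk2, Ndrg1, Pdk3, Pfkfb3, Pfkm and Pkm), as were 20 of 27 in KO against WT (beside 52.0%) and 5 of 8 in R47H against WT (beside 21.2%), the latter being Aldoc, P4ha2, Pdk1, Pfkfb3 and Slc2a3. Slc2a3, P4ha2 and Ankrd37 are among these genes although the alternative with a minimum mean of 5 FPKQ did not test them.

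Scaling moved R47H more than KO. When all libraries were set to equal sums over the tested genes, the median log2 difference of all genes in R47H against WT moved from 0.039 to -0.070, the share of calls that were higher from 63.1% to 20.61%, and the number of members that fell from 6 to 18, beside 16.9% of all tested genes, while 2 rose, beside 4.38%. After quantile normalization 10 fell and 2 rose in R47H, beside 9.88% and 9.34%. Relative to the median of all genes, the 13 enzymes from Gpi1 to Ldha stood at -0.117 in R47H as deposited, -0.130 with equal sums and -0.181 after quantile normalization. The same quantity in KO was -0.418, -0.428 and -0.371. In KO the share of calls that were higher moved from 54.35% to 36.16% with equal sums. As deposited and with equal sums alike, 6 members rose and 21 fell in KO, beside 18.5% and 32.6% of all tested genes with equal sums. After quantile normalization 6 rose and 20 fell in KO, beside 3105 and 2611 of all 10843 tested genes. The median of the 11 tested hypoxia members changed sign with equal sums, from 0.069 to -0.013 in KO and from 0.055 to -0.064 in R47H.

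Other genes of central carbon metabolism, from lists of the pathways, are given for comparison. Of 29 tested genes of 42 listed for glycolysis and pyruvate use, 9 rose and 5 fell in KO, near the 28.2% and 23.7% of all tested genes. The mitochondrial pyruvate carrier gene Mpc1 was at 90.5 ± 6.72 FPKQ in WT, 192 ± 15.1 in KO and 121 ± 13.1 in R47H, and it rose by 1.08 ± 0.066 (SE) in KO (adjusted p = 1.05e-11). Slc16a6, a further carrier of the Slc16a family, rose by 1.45 ± 0.085 (SE) (adjusted p = 5.34e-12). Pdp1, the phosphatase that reverses the Pdk kinases, rose by 0.67 ± 0.070 (SE) (adjusted p = 4.88e-08), and Gpd2, the mitochondrial glycerol phosphate dehydrogenase, rose by 0.66 ± 0.070 (SE) (adjusted p = 7.56e-08). In R47H 1 gene of this list rose (Mpc1, by 0.41 ± 0.066, adjusted p = 8.58e-05) and 1 fell, beside 13.4% and 7.83% of all tested genes.

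Among 24 tested genes of 35 listed for the hypoxia response, 9 rose and 4 fell in KO, beside 28.2% and 23.7% of all tested genes. In R47H 4 rose and 0 fell, beside 13.4% and 7.83%. With equal sums the KO counts were 5 and 9, beside 18.5% and 32.6%. The transferrin receptor gene Tfrc was at 30.3 ± 6.03 FPKQ in WT, 114 ± 21.3 in KO and 53.9 ± 14.8 in R47H, and it rose by 1.88 ± 0.16 (SE) in KO (adjusted p = 2.49e-09). Cited2, a Hif1a target that restrains Hif1a, fell by 0.48 ± 0.081 (SE) (adjusted p = 4.05e-05), while Mxi1, an antagonist of Myc, rose by 0.27 ± 0.047 (SE) (adjusted p = 4.86e-05) and Ppp1r3b, a glycogen-targeting subunit, rose by 0.30 ± 0.062 (SE) (adjusted p = 0.000317). In the pentose phosphate pathway, which branches from glycolysis to make NADPH and ribose, 4 of 10 tested genes rose and 2 fell in KO, beside 28.2% and 23.7% of all tested genes. Taldo1 rose by 0.36 ± 0.057 (SE) (adjusted p = 1.54e-05), H6pd rose by 0.38 ± 0.073 (adjusted p = 0.000175) and Pgd by 0.25 ± 0.054 (adjusted p = 0.000618), while Tkt fell by 0.33 ± 0.056 (SE) (adjusted p = 3.35e-05). Taldo1 and Pgd also rose in R47H, by 0.34 ± 0.057 (adjusted p = 0.000132) and 0.24 ± 0.054 (adjusted p = 0.00303).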

How the data were processed

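The authors deposited a table of FPKQ values for each library, which were treated as FPKM, a level per gene length and depth. No source used here defines FPKQ. The submitters' processing notes name RSEM and GRCm38, and the labels' protocols give poly-A selection and dUTP strand marking. Values were analysed as log2(FPKQ + 1) with R 4.3.3 and its package limma 3.58.1, moderated with a trend (lmFit, eBayes), with the 3 groups in 1 model, over the 10843 of 51456 genes whose mean reached 1 FPKQ. Fold changes on this scale understate those of low genes. All adjusted p-values are limma's with Benjamini-Hochberg adjustment over all tested genes, the threshold was 0.05, and intervals are at 95%. Tables used Python 3.11.15 with pandas 2.3.3. The script was tested on simulated data. No count test was run, since only 85.4% to 92.4% of low values per library came out as whole fragments.

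Values in every library are given for members called in any comparison with an absolute log2 difference of at least 0.4 and for paralogs set side by side, and the others are given by group mean. From each other pathway list the 4 tested genes with the smallest adjusted p in KO are named. The members and lists were chosen with earlier results of these data known. The alternatives changed the pseudocount, the minimum level, the scaling, the moderation, the wild-type set, the samples in the fit, the replicate numbers as a block, and left out each library in turn. Promoter sequences are from RefSeq on GRCm38.p6.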

Additional observations from a re-analysis of the deposited data

Results flagged for a closer look

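Single libraries stood apart in 4 of 108 groups of values, where chance alone gives about 1 in 20. Slc2a1 was at 14.9 FPKQ in KO Rep3 and between 12.7 and 13.1 in the other KO libraries. Hk2 was at 6.83 in WT Rep8 and between 8.38 and 9.25 in the other WT libraries. Arnt was at 24.4 in KO Rep5 and between 21.5 and 22.3 in the other KO libraries. Bnip3l was at 64.3 in WT Rep9 and between 49.3 and 57.0 in the other WT libraries.

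The change of R47H from WT Rep6 to Rep10 differed from the change of KO from WT Rep1 to Rep5 for 8 members (limma, adjusted p under 0.05). The difference of the 2 log2 changes was -0.72 for Hif1a (0.78 in KO and 0.06 in R47H, adjusted p = 3.54e-05) and -0.62 for Pfkfb3 (1.10 and 0.48, adjusted p = 0.00197). It was -0.30 for Hk2 (0.51 and 0.21, adjusted p = 0.044), -0.32 for Pdk3 (0.40 and 0.09, adjusted p = 0.0181) and -0.36 for Vegfa (0.42 and 0.07, adjusted p = 0.0337). It was 0.73 for Ndrg1 (-0.90 and -0.17, adjusted p = 0.000606), 0.32 for Pkm (-0.53 and -0.21, adjusted p = 0.0144) and 0.29 for Pfkm (-0.30 and -0.01, adjusted p = 0.0385).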

How the results depend on the processing

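Of the 27 members called in KO against WT, 20 were called in every alternative that tested them, as were 5 of 8 in R47H against WT and 7 of 23 in R47H against KO. The minimum of 5 FPKQ left Slc2a3, Slc16a1, P4ha2 and Ankrd37 untested. In R47H against WT the members called numbered 8, with 20 at equal sums and 15 against the neighbouring wild-type set. Of these, 2 rose, with 1 at a mean of at least 5 FPKQ, 6 against WT Rep1 to Rep5 and 5 with the replicate block. The number that fell was 6, with 18 at equal sums, 10 after quantile normalization, 10 against WT Rep6 to Rep10, 12 against the neighbouring set and 3 with the block. In R47H against KO the neighbouring sets left 1559 genes (4417 in the fit reported) and 8 members called, of which 3 rose. There, among members called in either fit, the differences of Slc2a1 (-0.085), Vegfa (-0.36) and P4ha1 (-0.082) turned negative, as did Aldoa (-0.022) after quantile normalization; the cause was not tested. Differences called in neither fit also changed sign, for Slc2a3, Hk1, Gpi1, Pfkl and P4ha2 with the neighbouring sets, for Vegfa and Egln2 after quantile normalization, and for Pfkl, Vegfa and Egln2 at equal sums.

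Leaving out each library in turn gave 24 to 28 members called in KO against WT, 7 to 11 in R47H against WT and 19 to 23 in R47H against KO. The members that rose numbered 6 to 7, 2 to 3 and 14 to 18, and those that fell 18 to 21, 5 to 8 and 5 to 5. The genes called numbered 5217 to 5758, 1704 to 2360 and 3743 to 4709. Among Rep1 to Rep5 of each group, same-numbered libraries correlated between -0.254 and 0.341 in their deviations from the group mean. Libraries with unlike numbers correlated between -0.294 and 0.366. For WT and R47H the range was 0.022 to 0.224 with the same number and -0.222 to 0.262 with unlike numbers. WT Rep6 to Rep10 were not compared in this way, so whether they pair with R47H was not tested. With the number as a block, the calls of Pfkp in R47H (adjusted p = 0.0584) and Gpi1 in KO (adjusted p = 0.0572) were lost. In that fit 8 members rose and 15 fell in KO, and 4398, 1802 and 4178 genes were called in the 3 comparisons. Numbers above Rep5 occur only in WT, so WT Rep6 to Rep10 added nothing to these comparisons and WT Rep1 to Rep5 were the control. Against WT Rep1 to Rep5 without a block, 8 members rose and 16 fell in KO. There the limma adjusted p was 0.0373 for Pfkp in R47H and 0.0337 for Gpi1 in KO.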

Other observations

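Libraries of 1 genotype also varied together. R47H Rep3 held the highest R47H level of Gpi1, Aldoa, Tpi1, Pgk1, Pgam1, Eno1, Pkm and Ldha and the lowest of Hif1a, Pfkfb3 and Vegfa, with Ldha at 604.5 FPKQ and Hif1a at 24.9. All genes of R47H Rep3 summed to 679634 FPKQ and those of Rep2 to 680147, beside 590190 to 634036 in the other R47H libraries. The members made up 0.804% of this sum in Rep3, 0.802% in Rep1 and 0.687% in Rep2. The part of library scale in these levels was not tested. KO Rep5 held the highest KO level of Gpi1, Tpi1, Gapdh, Pgk1, Pgam1, Pkm and Ldha. These libraries were singled out after their values were seen.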
